A study of Mus musculus with 106 samples.

Results

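Integrins, laminins and collagens were followed through the founding of the mouse germ line in single cells. The path leads from pre-streak epiblast to primordial germ cells (PGCs), which later form sperm and eggs. The members were taken by gene symbol: integrin alpha and beta chains (Itga or Itgb with 1 or 2 further characters, without Itgbl1), laminin alpha, beta and gamma chains (Lama, Lamb or Lamc with 1 digit) and collagen chains (Col, a number, a and a number), each with a probe set of 1 gene symbol. The array measured 77 of them, 25 integrin, 10 laminin and 42 collagen genes, among 18193 genes in all. The rule itself uses no measured value.

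Amplified cDNA of 1 cell of a C57BL/6 embryo was hybridised to each array, and the labels give 11 groups of cells. The wild-type lineage had 8 epiblast cells of the pre-streak (PS) stage, chosen by Oct4 and T transcripts. It continued with 7 precursors of the Early/Mid-Streak (E/MS) and 17 of the Late-Streak/0-Bud (LS/0B) stage, chosen by Blimp1 and Oct4, and with 8 PGCs each of Early/Mid-Bud (E/MB) embryos, of the early head fold (EHF) stage and of E8.25, chosen by Blimp1 and stella. Beside it stood 10 posterior mesoderm cells of E/MB embryos, taken as Blimp1-negative cells with Oct4 and Hoxb1, and 2 groups of 4 Blimp1+ Hoxb1+ cells, one of E/MB embryos and one given as EHF in its description but as E/MB in its title. Blimp1 knockout (KO) cells came from LS/0B (20 cells) and E/MB (12 cells) embryos and were chosen by the transcript of the null allele and Oct4, so they were not picked by stella as PGCs were. Blimp1 (Prdm1) is a transcriptional repressor that PGCs need to form.

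Because no embryo or litter was named for any cell, a group counted as 1 sample, and differences between groups are values of these cells without a test. Values are log2 array signal, with signals under a background floor of 6.13 raised to that floor. A gene was detected in a cell when its signal passed the 95th percentile of background probe sets in that cell, and intervals on counts of cells are exact 95% binomial intervals that cover counting error only. A low value in a single amplified cell does not show that the transcript was absent.

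Markers of the labelled cell types were counted in each cell, and the lists hold transcripts by which cells had been picked (Prdm1 and Dppa3, which is stella, for germ cells and Hoxb1 for mesoderm), so part of these counts was fixed by the selection. Of 9 germ cell markers, 9 were detected in every E/MB and EHF PGC and 8 or 9 in E8.25 PGCs, against 3 to 6 in epiblast. E/MB knockout cells held 2 to 9 of them. Of 12 markers of nascent and posterior mesoderm, 9 to 11 were detected per mesoderm cell, 6 to 10 per E/MB knockout cell and 1 to 5 per E/MB PGC. Group means of genes detected per cell lay between 6719 in mesoderm and 7608 in LS/0B knockout cells. The arrays also fell into sets by the signal of Abca4, Ppp2cb and controls, although the labels name no batch. Abca4 averaged 8.42 ± 0.40 (SD, n = 56) on wild-type lineage arrays and 6.22 ± 0.23 (n = 40) on knockout and Blimp1+ Hoxb1+ arrays. Ppp2cb went the other way (6.38 ± 0.49 and 8.51 ± 0.91), but was still detected in 9 of 56 wild-type lineage cells. Mesoderm averaged 7.45 for Abca4 and 8.70 for Ppp2cb. Hybridisation controls averaged 11.23 ± 0.33 on the 10 mesoderm arrays and 9.79 ± 0.28 on the other 96. Whether these signals follow the arrays or the cells was not tested. Array set and cell type therefore cannot be told apart between PGCs and mesoderm, Blimp1+ Hoxb1+ or knockout cells. The same holds between knockout cells and wild-type precursors or mesoderm. Steps within the wild-type lineage stayed within 1 set read in this way. Xist, which coats the inactive X in female cells, was detected in 8 of 8 epiblast cells, 0 of 7 E/MS and 8 of 17 LS/0B precursors, 0, 5 and 0 of 8 PGCs by stage, and 0 of 32 cells without Blimp1, so sex and stage cannot be told apart in comparisons with epiblast.

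Laminins are trimers of an alpha, a beta and a gamma chain that assemble with collagen IV networks into basement membranes, the sheets on which the epiblast sits and which cells breach when they leave through the primitive streak. Integrins are pairs of an alpha and a beta chain in the plasma membrane that bind these sheets (alpha3, alpha6 and alpha7 with beta1), fibronectin and other RGD proteins (alpha5, alpha8 and alphaV, and alphaIIb in platelets) or collagen (alpha1, alpha2, alpha10), and link them to actin. PGCs move through the hindgut and the mesentery, and mouse PGCs lacking integrin beta1 are known to reach the gonads poorly. Fibrillar collagens belong to connective tissue, collagens IX, XII, XIV, XX and XXII associate with fibrils, and collagen XVIII is a basement membrane proteoglycan.

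A minority of the genes was detected widely in any group. Of the 77 members, 22 were detected in no cell (28.6%, against 25.4% of all genes) and 28 in 50% or more of some group's cells (36.4%, against 55.6% of all genes). The 28 were 10 integrins, 5 laminins and 13 collagens. The median member was detected in 7 cells. A cell held between 12 and 26 detected members, and group means lay between 15.4 ± 2.07 in EHF PGCs and 18.8 ± 2.56 in LS/0B precursors, with overlapping ranges in all groups. The mean of the integrin beta5 chain was lower in the 3 PGC groups than in every other group, the laminin-binding chain Itga3 was highest in epiblast, and Col18a1 was high in epiblast and PGCs and lower between and beside them.

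**Figure D1:**
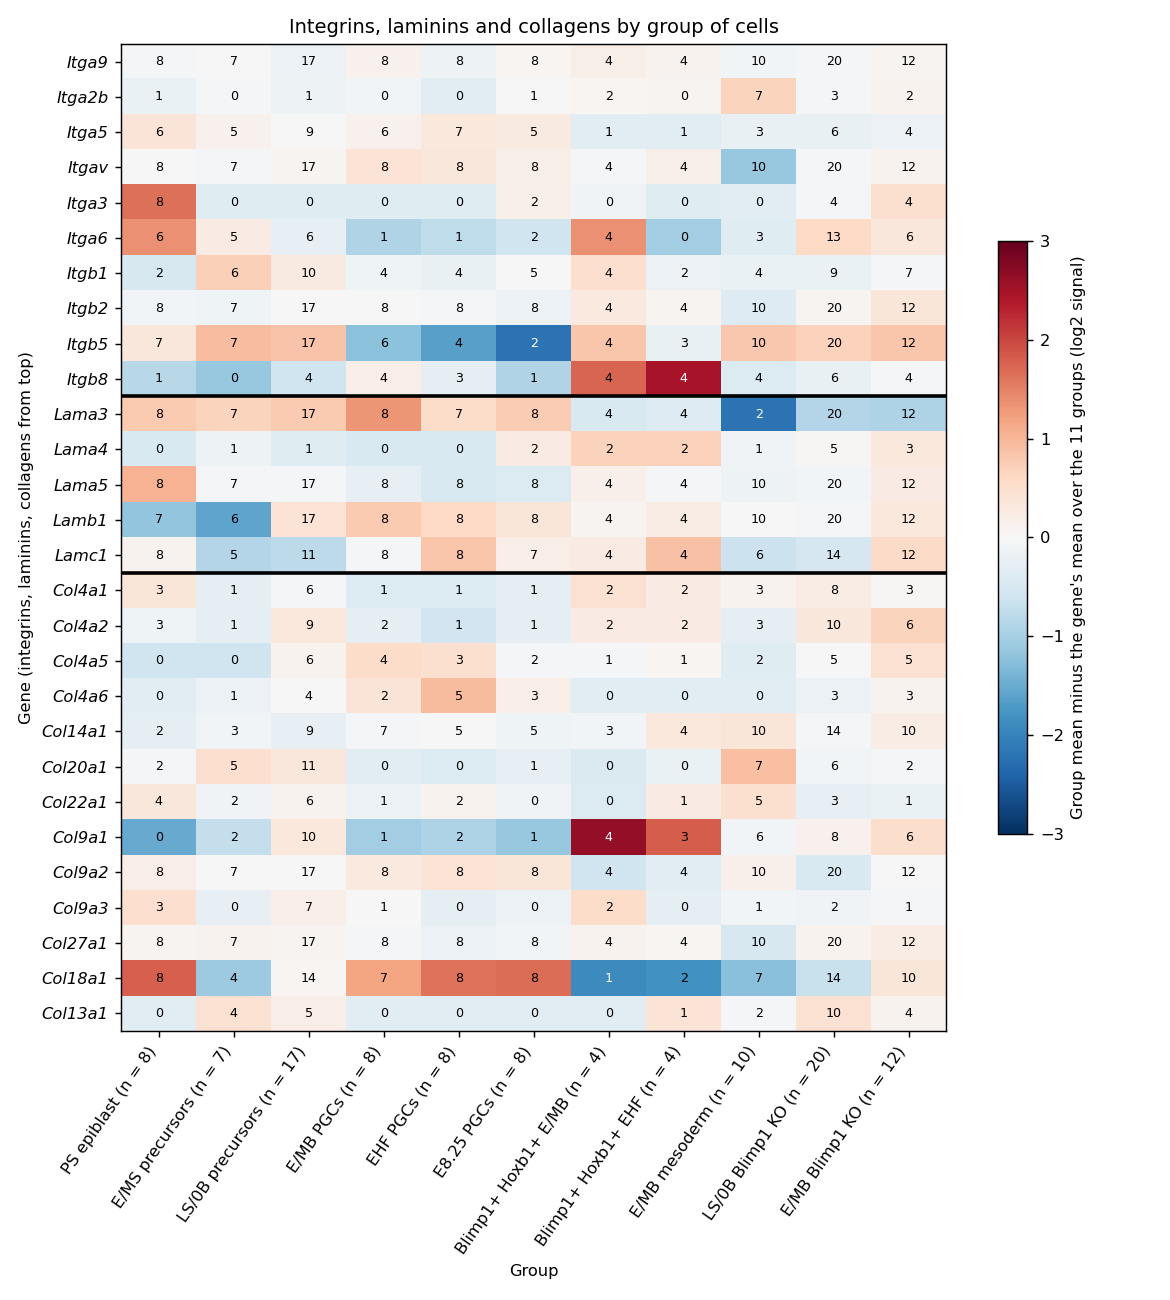
Group means of the 28 members found in 50% or more of some group's cells. Colour gives the group mean minus that gene's mean over the 11 groups in log2 signal, and the number in each square counts the cells in which the gene was detected, as for Itgb5 with 2 of 8 at E8.25 and 12 of 12 in E/MB knockout.

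Along the wild-type lineage, members past 1 log2 unit were few at each step. Between PS epiblast and E/MS precursors, Itgb1 and Itga8 were higher (2 of 77 members, against 2.67% of all genes) and Col18a1, Itga3, Itga6 and Lama5 lower (4 members, against 2.94%). In LS/0B as against E/MS precursors, Lamb1, Col18a1 and Col9a1 were higher (3, against 1.48%) and 0 members lower (against 1.47%). E/MB PGCs had Col18a1 higher than LS/0B precursors (1, against 2.96%) and Itgb5 and Col9a1 lower (2, against 2.66%). From E/MB to E8.25 PGCs 0 members were higher (against 2.5%) and only Itgb8 was lower (1, against 2.59%), with Itgb5 just short of the threshold. Over the whole path, E8.25 PGCs had Lamb1 higher than epiblast (1, against 4.9%) and Itgb5, Itga6, Itga3 and Lama5 lower (4, against 5.12%). The median difference of members and of all genes was 0 in each comparison. All 4 members lower at the first step and all 3 higher at the second were among the 18 and 19 members found in 50% or more of the cells in 1 of the compared groups. Of all genes filtered in that way, 6.51% were lower at the first step and 3.16% higher at the second. Because this filter uses the compared groups, these counts are a description.

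Beside the lineage, E/MB PGCs had Lama3, Col18a1 and Itgav higher than mesoderm (3 members, against 8.43%) and Itgb5 and Col20a1 lower (2, against 3.62%). Against Blimp1+ Hoxb1+ cells of E/MB embryos they had Col18a1 and Lama3 higher (2, against 5.21%) and Col9a1, Itga6, Itgb5, Itgb8 and Lama4 lower (5, against 5.52%). At LS/0B, knockout cells had 0 members higher than wild-type precursors (against 1.06%) and Lama3 lower (1, against 0.39%). At E/MB, knockout cells had Itgb5, Col9a1, Itga6 and Col1a1 higher than PGCs (4, against 4%) and Lama3 lower (1, against 3.61%). Against mesoderm they had Col18a1, Lama3, Itgav and Lamc1 higher (4, against 6.89%) and 0 members lower (against 1.29%). The comparisons that share E/MB PGCs, E/MB knockout cells, LS/0B precursors, mesoderm or epiblast share those cells and are not independent of each other.

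**Figure D2:**
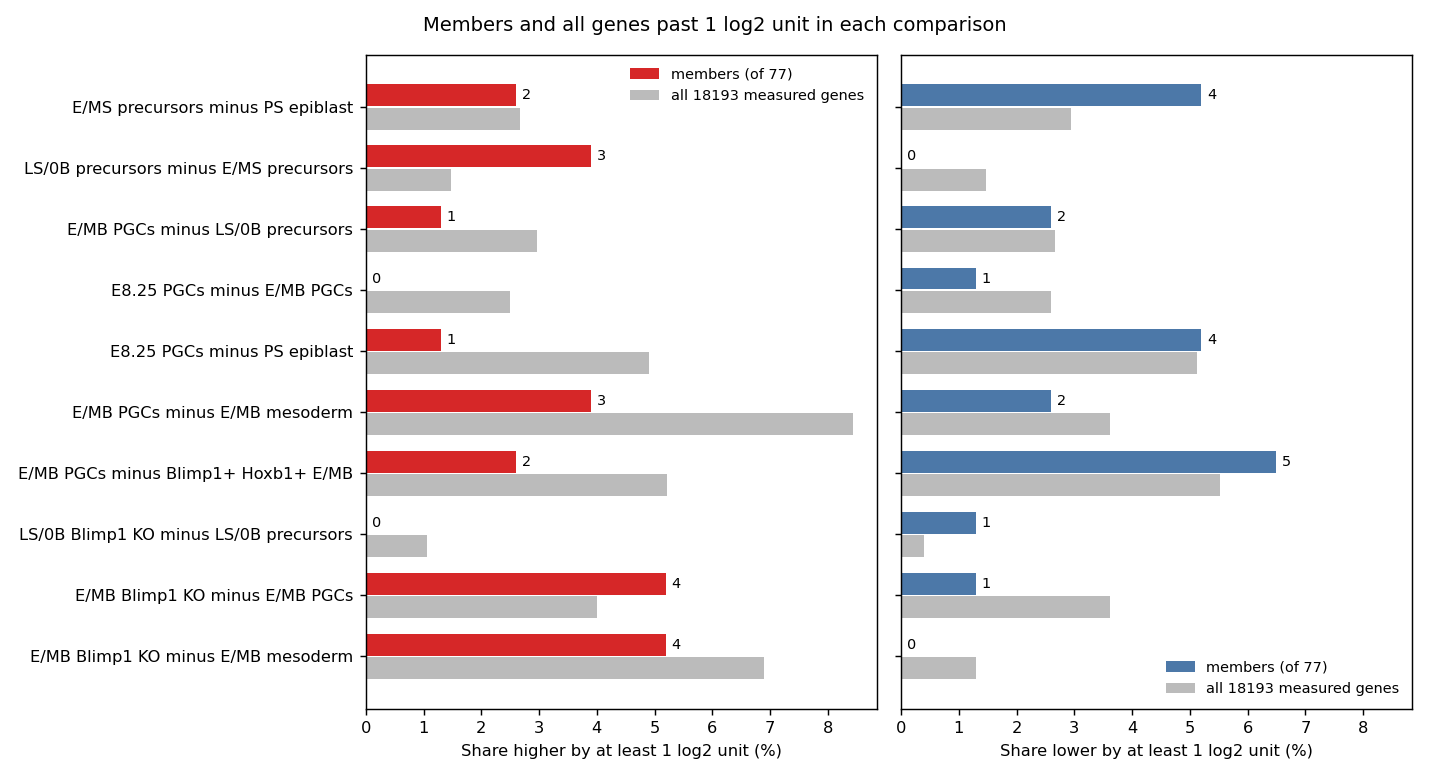
Share of the 77 members (coloured bars, with the number of members) and of all 18193 genes (grey bars) that were higher or lower by at least 1 log2 unit in each comparison. Members past the threshold number 0 to 5 in each direction, and the grey bars reach 8.43%.

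How arrays were scaled mattered for the balance over all genes. The share of calls that were higher, among genes past 1 log2 unit, went from 47.6% to 78.5% between epiblast and E/MS precursors when arrays were scaled to the spiked lys controls, from 50.3% to 14.9% between E/MS and LS/0B precursors and from 52.7% to 17.1% at the step to E/MB PGCs. It went from 49.1% to 79.5% between E/MB and E8.25 PGCs, from 69.9% to 28.8% against mesoderm and from 52.6% to 91.2% between E/MB knockout cells and PGCs. Scaling to the 75th percentile gave 56.4% in place of 69.9% for PGCs against mesoderm, 51.9% in place of 73.1% for LS/0B knockout against wild-type cells and 58.5% in place of 84.3% for E/MB knockout cells against mesoderm. With the lys controls the median over broadly detected genes lay between -0.42 and 0.65 over the comparisons, and with the deposited scale between -0.04 and 0.16. The direction of every named difference of a member held under both scalings.

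Among integrin beta chains, Itgb5 was lower in PGCs than in precursors, mesoderm, Blimp1+ Hoxb1+ and knockout cells. It encodes the beta5 chain, which pairs with alphaV into a receptor for vitronectin. It was detected in 7 of 8 epiblast cells, 7 of 7 E/MS and 17 of 17 LS/0B precursors, then in 6, 4 and 2 of 8 PGCs by stage. It was present in 10 of 10 mesoderm cells, 20 of 20 LS/0B and 12 of 12 E/MB knockout cells, and 4 of 4 and 3 of 4 cells of the 2 Blimp1+ Hoxb1+ groups. Its lowest, median and highest signals were 7.88, 9.81 and 11.43 in LS/0B precursors, 6.13, 7.40 and 10.12 in E/MB PGCs, 6.13, 6.81 and 9.80 in EHF PGCs and 6.13, 6.13 and 9.12 in E8.25 PGCs. Thus single PGCs at each stage still reached the precursors' range, while the median PGC lay below it. Group means were 9.29 ± 1.52 in epiblast, 9.88 ± 0.72 in E/MS and 9.80 ± 0.94 in LS/0B precursors, and 7.72 ± 1.51, 7.32 ± 1.43 and 6.72 ± 1.06 in the successive PGC groups. E/MB PGCs differed from LS/0B precursors by -2.08, within the wild-type lineage, and leaving out any 1 cell kept this between -2.43 and -1.86. E8.25 PGCs differed from epiblast by -2.57.

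Cells without Blimp1 lay at the level of precursors. Itgb5 ran from 7.58 over a median of 10.15 to 10.97 in E/MB knockout cells (mean 9.79 ± 0.96) and from 7.40 over 9.94 to 10.92 in LS/0B knockout cells (9.63 ± 0.85). The E/MB knockout mean was 2.07 above that of PGCs of the stage, and the ranges overlapped. Mesoderm (9.75 ± 1.12) and the Blimp1+ Hoxb1+ cells of E/MB embryos, with signals of 8.88, 9.30, 10.39 and 10.50, lay at the same height, and PGCs differed from them by -2.03 and -2.05. Precursors and E/MB Blimp1+ Hoxb1+ cells, which have Blimp1 transcripts but were chosen without stella, were therefore among the high groups. Blimp1+ Hoxb1+ cells labelled EHF were spread, at 6.89, 7.54, 9.94 and 10.55 (mean 8.73). Those at 6.89 and 7.54 lay below the lowest LS/0B precursor (7.88). E/MB knockout cells also held 7.92 of 12 mesoderm markers on average (6 to 10 per cell) against 2.75 (1 to 5) in PGCs. Wild-type precursors, also high in Itgb5, held 7.29 (2 to 10) at E/MS and 6.65 (3 to 11) at LS/0B. The part of these markers in the result was not tested, and array set cannot be told apart from genotype here. Each of the 4 Itgb5 probe sets gave a difference past 1 log2 unit in the same direction, both at the step to E/MB PGCs and in knockout cells against PGCs.

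The promoter of Itgb5 is shown because its mean was lower in PGCs than in all other groups, and because Blimp1 is a DNA-binding repressor. The sequence (RefSeq, GRCm38.p6, chr16:33829415-33829714, plus strand) lies mostly before the annotated start, with matches to GNGAAAG, the core of sequences Blimp1 is known to bind, to CCAAT and to GGGCGG in capitals, on either strand.
Itgb5: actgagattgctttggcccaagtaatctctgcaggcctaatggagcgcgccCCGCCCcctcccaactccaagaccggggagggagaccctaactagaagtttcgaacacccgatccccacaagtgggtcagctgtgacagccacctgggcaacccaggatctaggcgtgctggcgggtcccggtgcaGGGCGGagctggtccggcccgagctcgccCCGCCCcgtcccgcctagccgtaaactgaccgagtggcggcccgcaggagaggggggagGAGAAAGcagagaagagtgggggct
It held 1 GNGAAAG match, 26 bases after the start and read GAGAAAG, 3 GGGCGG matches at 199, 63 and 34 bases before the start, and 0 CCAAT matches. Of 32851 promoters of this length, 22.6% hold GNGAAAG, 37.4% CCAAT and 35.7% GGGCGG on at least 1 strand. A match is a description of the letters and shows no binding.

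The other beta chains were sparser. Itgb1, the partner of most alpha chains, was detected in 57 cells: 2 of 8 epiblast cells, 6 of 7 E/MS and 10 of 17 LS/0B precursors, 4, 4 and 5 of 8 PGCs by stage, 4 and 2 of 4 Blimp1+ Hoxb1+ cells, 4 of 10 mesoderm, 9 of 20 LS/0B and 7 of 12 E/MB knockout cells. Epiblast cells had a lowest, median and highest signal of 6.13, 6.22 and 8.38, and E/MS precursors 6.74, 8.09 and 9.21, a difference of 1.18 that came to 0.96 without E/MS cell 3. Of its other 5 probe sets, detected in 0, 0, 2, 10 and 37 cells, the last also passed 1 unit at this step (6.40 and 7.41). Itgb8, a chain that pairs with alphaV to activate TGF-beta, read 8.47, 8.62, 9.22 and 9.83 in Blimp1+ Hoxb1+ cells of E/MB embryos and 9.34, 9.39, 9.80 and 10.50 in those labelled EHF. All 8 cells had it detected, against 4 of 8 E/MB PGCs (7.47 ± 1.61), 4 of 10 mesoderm cells (6.87 ± 0.80) and 1 of 8 E8.25 PGCs (6.38 ± 0.63). E/MB PGCs were 1.57 below the E/MB Blimp1+ Hoxb1+ cells, with overlapping ranges and different array sets. Itgb3, another vitronectin receptor chain, was detected in 2 of 8 cells of each PGC group and 1 of 17 LS/0B precursors, and in 0 of the other 65 cells. Itgb4 and Itgb6 were detected in 0 cells, for which the exact interval reaches 3.42%.

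Among laminin-binding alpha chains, Itga3 was found chiefly in epiblast. Its signals in the 8 epiblast cells ran from 7.26 over a median of 7.89 to 9.59, all detected, whereas all 40 E/MS, LS/0B, E/MB and EHF lineage cells sat at the floor and 0 were detected. E/MS precursors were thus at least 2.41-fold lower, taking their detection limits for their levels. It was detected again in 2 of 8 E8.25 PGCs (highest 7.71), 4 of 20 LS/0B knockout cells (highest 8.18) and 4 of 12 E/MB knockout cells (highest 9.23), and in 0 of 10 mesoderm cells. LS/0B precursors with and without Xist both stood at 6.13. The other 2 Itga3 probe sets were detected in 5 and 0 cells. The first of these averaged 6.96 in epiblast and 6.13 in E/MS precursors, short of 1 log2 unit.

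Itga6, which pairs with beta1 or beta4, went the same way less sharply. It was detected in 6 of 8 epiblast cells, 5 of 7 E/MS and 6 of 17 LS/0B precursors, and 1, 1 and 2 of 8 PGCs by stage. Group means were 8.57 ± 1.56, 7.42 ± 1.10, 6.94 ± 1.22, 6.28 ± 0.40, 6.44 ± 0.86 and 6.60 ± 0.87. E8.25 PGCs were 1.97 below epiblast. The first step, of -1.14, came to -0.93 without E/MS cell 6 or 7 and to between -0.99 and -0.96 without epiblast cell 2, 4 or 5. Knockout cells had it in 13 of 20 at LS/0B (7.78 ± 1.46) and 6 of 12 at E/MB (7.51 ± 1.39, 1.24 above PGCs). The 2 Blimp1+ Hoxb1+ groups did not overlap: signals were 7.46, 7.86, 9.43 and 9.47 in the E/MB cells and 6.13 in all 4 cells labelled EHF. Only 1 of its 2 probe sets carried these values, the other being detected in 3 cells.

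Itgav, the alphaV chain that pairs with several beta chains, was detected in all cells. Its group means lay between 9.95 and 10.41 outside mesoderm, with SDs of 0.13 to 0.34, and at 8.86 ± 0.35 in mesoderm, where the highest cell (9.46) lay below the lowest E/MB PGC (10.21). E/MB PGCs were 1.54 and E/MB knockout cells 1.25 above mesoderm without overlap. A second Itgav probe set averaged 7.01 in E/MB PGCs and 6.68 in mesoderm, and the hybridisation controls of the mesoderm arrays stood apart as given above, whose part was not tested. Itga5, the classical fibronectin receptor chain, was detected in 5 to 7 of 8 cells in epiblast and each PGC group, 5 of 7 E/MS and 9 of 17 LS/0B precursors, 1 of 4 cells in both Blimp1+ Hoxb1+ groups, 3 of 10 mesoderm, 6 of 20 LS/0B and 4 of 12 E/MB knockout cells. Its means stayed between 6.55 and 7.26, close to the detection limit, which lay between 6.37 and 7.37 over cells. A second Itga5 probe set, detected in 36 cells, averaged 6.16 in E/MB and 6.13 in EHF PGCs, 7.05 in mesoderm and 6.83 and 6.93 in knockout cells, so the probe sets gave these groups opposite orders. Itga8, a receptor chain for nephronectin, was detected in 3 of 7 E/MS precursors, 2 of 17 LS/0B precursors and 2 of 20 LS/0B knockout cells, with a highest signal of 10.13 in an LS/0B precursor, and in 0 of 24 PGCs. Itga2b was detected in 7 of 10 mesoderm cells (7.18 ± 0.49), in 2 of 4 E/MB Blimp1+ Hoxb1+ cells and in 0 to 3 cells of each other group.

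Leukocyte integrins gave an unequal picture. Itgb2, the beta chain of the leukocyte integrins, was detected in all cells at group means between 8.60 and 9.35, while its partners Itgal, Itgam and Itgax were detected in 0 cells. Itga9 was likewise detected in all cells, at 8.35 to 8.70, although its other 2 probe sets were detected in 6 and 0 cells, while Itga4 was detected in 0. The SD over all cells was 0.24 for Itga9, 0.27 for Itgb2 and 0.28 for Col27a1, against a median SD of 0.48 and a 10th percentile of 0.25 among the 1627 genes detected in every cell. For Itgb2, E/MB knockout cells (9.13 to 9.63) still lay above mesoderm (8.38 to 8.86) without overlap, across array sets.

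**Figure D3:**
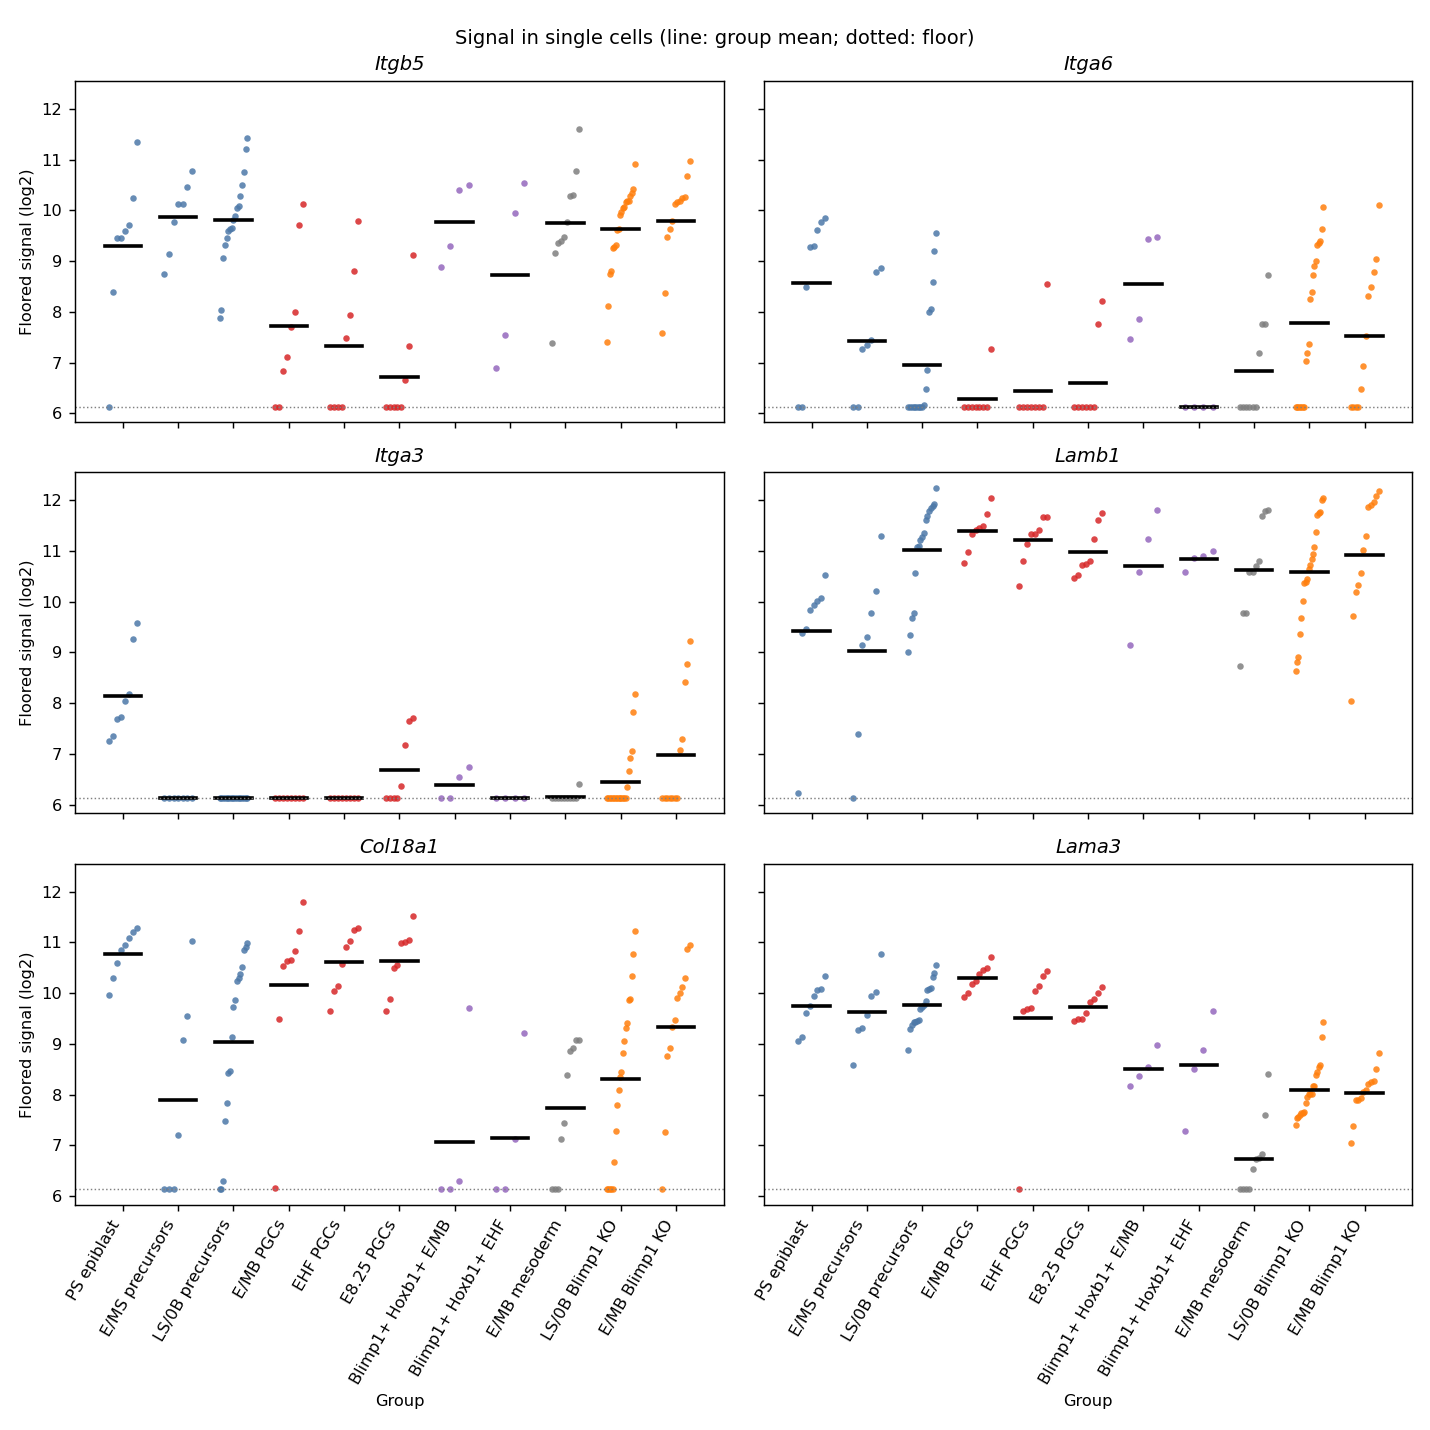
Floored log2 signal of 6 members in each cell, by group. Points are single cells, sorted within a group, lines are group means and the dotted line is the floor at 6.13. Most PGCs lie below the precursors for Itgb5, and the 8 epiblast cells stand above all 40 lineage cells of the next 4 groups for Itga3. Lama3 is highest on average in the wild-type lineage groups.

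Of the laminin chains, the beta chain Lamb1 was higher from the LS/0B stage on. Its lowest, median and highest signals were 6.23, 9.89 and 10.52 in epiblast, 6.13, 9.29 and 11.30 in E/MS precursors and 10.76, 11.43 and 12.04 in E/MB PGCs. LS/0B precursors between them had a median of 11.27 and a highest signal of 12.24 (mean 11.02 ± 0.99). LS/0B precursors exceeded E/MS precursors by 1.99 and E8.25 PGCs (10.98 ± 0.49) exceeded epiblast (9.43 ± 1.34) by 1.55, both with overlap. Means in all later groups lay between 10.58 and 11.40, knockout cells and mesoderm included. In LS/0B precursors Lamb1 averaged 11.39 in the 8 cells with Xist and 10.70 in the 9 without. A second probe set detected in 100 cells had the same 2 steps.

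Lama5, the alpha chain of laminin in the epiblast basement membrane, was detected in all cells and highest in epiblast. Its 8 epiblast signals ran from 8.23 over 9.10 to 9.55, E/MS precursors from 7.49 over 7.60 to 9.35, and E8.25 PGCs from 7.31 over 7.50 to 8.12. The first step was -1.07, and came to -0.99 without E/MS cell 1 or epiblast cell 2. Epiblast and E8.25 PGCs, 1.45 apart, did not overlap. Group means after epiblast lay between 7.53 and 8.22. Lamc1, the common gamma chain, was detected in 87 cells, with means of 8.37 ± 0.52 in epiblast, 7.39 ± 0.80 in E/MS and 7.47 ± 1.06 in LS/0B precursors and 8.21 ± 1.20, 9.08 ± 0.64 and 8.46 ± 1.17 in the PGC groups. It was 1.20 higher in E/MB knockout cells (8.83 ± 0.74) than in mesoderm (7.62 ± 1.31), across array sets. A second Lamc1 probe set, detected in 52 cells, went the other way, at 6.31 in E/MB knockout cells and 7.13 in mesoderm.

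Lama1, the alpha chain of the first laminin made by the embryo, was detected in only 5 cells: 1 E/MB PGC, 1 mesoderm cell and 3 LS/0B knockout cells. Lama4, found in vessel and mesenchymal laminins, was detected in 2 of 4 cells of each Blimp1+ Hoxb1+ group, 5 of 20 LS/0B and 3 of 12 E/MB knockout cells, and, among PGCs, 0, 0 and 2 of 8 by stage. Lama3, an alpha chain of epithelial laminins, was detected in 97 cells and averaged highest in the wild-type lineage groups. Its means were 9.52 to 10.30 in the wild-type lineage groups, 8.51 and 8.57 in Blimp1+ Hoxb1+ cells, 8.08 and 8.03 in knockout cells and 6.74 in mesoderm. E/MB knockout cells were 2.27 below PGCs and LS/0B knockout cells 1.67 below precursors, and PGCs were 3.56 above mesoderm and 1.79 above Blimp1+ Hoxb1+ cells. Abca4 averaged 8.40 in E/MB PGCs, 6.30 in Blimp1+ Hoxb1+ cells, 6.23 in E/MB knockout cells and 7.45 in mesoderm. Mesoderm was lowest for Lama3 and lay between these groups for Abca4, but its arrays also stood apart in hybridisation controls (11.23 against 9.79). The order of Abca4 therefore does not measure the part of array set in Lama3. The part of array set was not tested, and it cannot be told apart from cell type or genotype here. The second Lama3 probe set was detected in 0 cells. Lamb2, Lamb3, Lama2 and Lamc3 were detected in 8, 1, 0 and 0 cells.

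Among collagens, Col18a1 passed 1 log2 unit at each of the first 3 steps of the lineage. Its signals ran from 9.97 over 10.89 to 11.29 in epiblast, from 6.13 over 7.21 to 11.02 in E/MS precursors, from 6.13 over 9.73 to 10.98 in LS/0B precursors, from 6.16 over 10.64 to 11.79 in E/MB PGCs and from 9.64 over 10.77 to 11.51 in E8.25 PGCs. Precursors thus spread over the whole range, while epiblast and PGCs, apart from 1 E/MB PGC, were uniformly high. The step from epiblast to E/MS precursors was -2.88. LS/0B precursors were 1.15 above E/MS precursors, which came to 0.85 without E/MS cell 2, 3 or 7, and E/MB PGCs were 1.13 above LS/0B precursors. That last step came to 1.70 without E/MB PGC 5 and to between 0.89 and 0.97 without E/MB PGC 3 or 8 or LS/0B cell 6, 14 or 20. Its second probe set passed 1 unit at the first and the last of these steps but not between E/MS and LS/0B precursors.

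Outside the lineage Col18a1 was lower on average than in PGCs. Blimp1+ Hoxb1+ cells read 6.13, 6.13, 6.30 and 9.71 at E/MB, 3.10 below PGCs of the stage on average, and mesoderm averaged 7.73 ± 1.28, 2.44 below PGCs. Knockout cells averaged 8.30 ± 1.69 at LS/0B and 9.33 ± 1.42 at E/MB, where they exceeded mesoderm by 1.61 and were detected in 10 of 12 cells. These differences coincide with array sets.

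Collagen IV, the sheet-forming collagen of basement membranes, was found in a minority of cells. Col4a1 was detected in 31 and Col4a2 in 40 cells. Col4a1 reached 50% of cells only in the Blimp1+ Hoxb1+ groups, with 2 of 4 cells each. Col4a2 reached that share in LS/0B precursors (9 of 17), both Blimp1+ Hoxb1+ groups (2 of 4) and both knockout groups (10 of 20 and 6 of 12). Both chains, which form one trimer, were detected together in 19 cells, Col4a1 alone in 12, Col4a2 alone in 21 and neither in 54, and counting any probe set of either gene gave 24, 21, 16 and 45 cells. Of 8 PGCs at each stage, Col4a1 was detected in 1, 1 and 1 and Col4a2 in 2, 1 and 1. The pair Col4a5 and Col4a6 was detected together in 6 cells. Col4a6 was detected in 2, 5 and 3 of 8 PGCs by stage (means 6.83, 7.40 and 6.64) and in 0 of 18 mesoderm and Blimp1+ Hoxb1+ cells, and Col4a5 in 4, 3 and 2 of 8. Both were detected in 0 of 8 epiblast cells. Col4a3 was detected in 0 cells and Col4a4 in 18.

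The promoters of Col4a1 and Col4a2 are shown because both genes are read from one stretch of DNA while their transcripts were detected together in 19 cells. Per RefSeq (GRCm38.p6), Col4a1 lies on the minus strand (window chr8:11312777-11313076) and Col4a2 on the plus strand (chr8:11312555-11312854). Capitals mark CCAAT and GGGCGG on either strand.
Col4a1: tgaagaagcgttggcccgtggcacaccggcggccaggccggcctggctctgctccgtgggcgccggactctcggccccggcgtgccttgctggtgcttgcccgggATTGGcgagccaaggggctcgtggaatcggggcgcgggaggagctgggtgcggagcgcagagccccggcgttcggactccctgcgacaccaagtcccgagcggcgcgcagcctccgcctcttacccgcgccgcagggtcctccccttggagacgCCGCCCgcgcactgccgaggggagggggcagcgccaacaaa
Col4a2: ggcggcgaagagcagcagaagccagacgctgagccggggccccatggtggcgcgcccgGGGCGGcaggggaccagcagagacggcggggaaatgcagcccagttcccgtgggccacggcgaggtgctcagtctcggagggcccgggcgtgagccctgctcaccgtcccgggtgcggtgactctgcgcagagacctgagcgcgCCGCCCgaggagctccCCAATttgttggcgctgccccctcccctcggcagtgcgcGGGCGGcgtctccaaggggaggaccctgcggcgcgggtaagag
The annotated starts lie 21 bases apart and the windows share 78 bases. Col4a1 had 1 CCAAT match 145 bases before its start and 1 GGGCGG match. Col4a2 had 1 CCAAT match 32 bases before its start and 3 GGGCGG matches, and both windows held 0 GNGAAAG matches. The GGGCGG match of Col4a1 lies in the shared bases and is also 1 of the 3 of Col4a2, read on the other strand.

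Collagen IX chains, best known from cartilage, gave the largest difference of the family. Col9a1 read 8.15, 9.96, 11.34 and 11.72 in Blimp1+ Hoxb1+ cells of E/MB embryos and 6.87, 9.30, 10.57 and 11.11 in those labelled EHF. It was detected in 1 of 8 E/MB PGCs (6.60 ± 1.07), a difference of -3.69 from the E/MB group with overlapping ranges and different array sets, in 0 of 8 epiblast cells and in 10 of 17 LS/0B precursors (7.96 ± 1.72). In E/MB knockout cells it stood at the floor in 6 of 12 cells and between 8.35 and 11.51 in the other 6. Mesoderm had it in 6 of 10 cells at up to 9.86. Col9a2 was detected in all cells at group means of 8.14 to 9.15, and Col9a3 in 2 of 4 E/MB Blimp1+ Hoxb1+ cells, 3 of 8 epiblast cells and 7 of 17 LS/0B precursors, but in 1 of 24 PGCs.

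The remaining collagens named by their detection were dim. Col14a1 was detected in 72 cells, in 10 of 10 mesoderm cells (7.49 ± 0.34) and 2 of 8 epiblast cells (6.82 ± 0.20). Col20a1 was detected in 7 of 10 mesoderm cells (7.60 ± 0.71), 5 of 7 E/MS and 11 of 17 LS/0B precursors and 1 of 24 PGCs, and E/MB PGCs were at least 1.67-fold below mesoderm. Col22a1 reached 50% of cells in epiblast (4 of 8) and mesoderm (5 of 10). Col13a1, a transmembrane collagen, was detected in 4 of 7 E/MS precursors, 5 of 17 LS/0B precursors, 10 of 20 LS/0B knockout and 4 of 12 E/MB knockout cells, and in 0 of 8 epiblast cells and 0 of 24 PGCs. Of the 11 fibrillar collagen genes, only Col27a1 was detected in 50% or more of a group's cells, and it was detected in all cells. Col1a1 was detected in 6 cells, 4 of them E/MB knockout cells, Col1a2 in 14 and Col3a1 in 0.

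Chains that work together were then counted in the same cell. Lama5, Lamb1 and Lamc1, the chains of the main epiblast laminin, were detected together in 86 cells (81.1%, 72.4 to 88.1%), in 7 of 8 epiblast cells and 23 of 24 PGCs. At the 99th percentile of background as the limit this came to 17 cells, with 5 of 8 epiblast cells and 0, 2 and 1 of 8 PGCs by stage. The count thus rests on the limit, and also on the Lama5 probe set that was detected in all cells. With Lama1 in place of Lama5 the trimer was complete in 5 cells, and in 0 at the stricter limit. Because Itgav was detected in all cells, counts of its pairs at the main limit repeat those of the beta chain alone. Itgav and Itgb5 were detected together in 92 cells and in 78 at the stricter limit. By group this was 7 of 8 epiblast cells, all 24 precursors, 6, 4 and 2 of 8 PGCs, and all 42 mesoderm and knockout cells. At the stricter limit 16 of 17 LS/0B precursors and 3, 3 and 1 of 8 PGCs by stage had both. For E8.25 PGCs the interval was 3.19 to 65.1%, and for E/MB knockout cells 73.5 to 100%. Itgav and Itgb3 were complete in 7 cells, of which 6 were PGCs, and in 5 cells at the stricter limit. Itgav and Itgb1 were complete in 57, Itga5 and Itgb1 in 28, Itga6 and Itgb1 in 26, Itga3 and Itgb1 in 8, and Itga6 and Itgb4 in 0 cells. At the stricter limit these 5 pairs came to 21, 0, 3, 0 and 0 cells, so their counts rest on the limit.

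**Figure D4:**
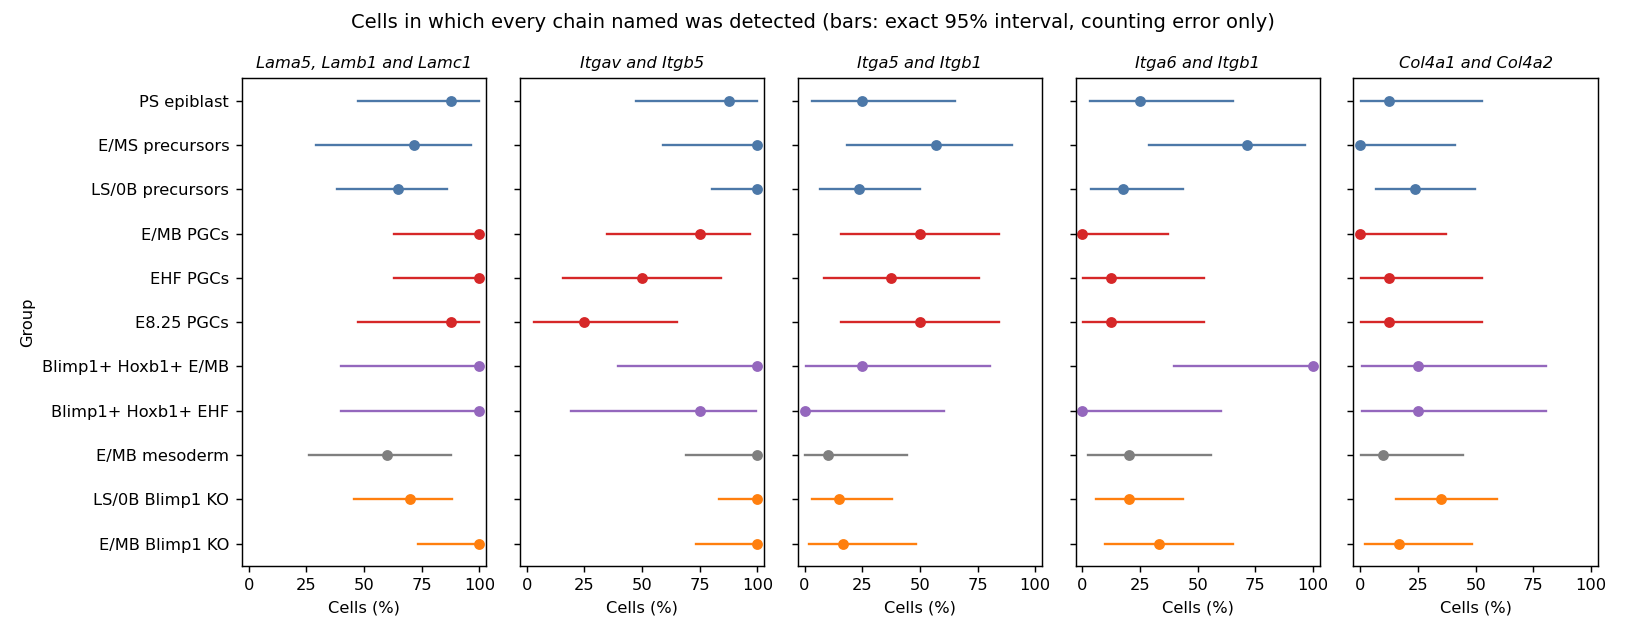
Share of cells of each group in which every chain named above the panel was detected. Points are shares in percent and bars are exact 95% binomial intervals for counting error. Itgav with Itgb5 was found in all 17 LS/0B precursors and 2 of 8 E8.25 PGCs. Itgav was detected in all cells, so this panel repeats the counts of Itgb5. Lama5, Lamb1 and Lamc1 were found in 7 or 8 of 8 PGCs, a count that came to 0 to 2 at the stricter limit, which is not drawn.

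Partners of these chains in the basement membrane and the fibronectin matrix were counted beside them. Of 20 such genes, 5 were higher and 1 lower in E8.25 PGCs than in epiblast, against 4.9% and 5.12% of all genes. Fn1, fibronectin itself, averaged 9.02 ± 1.06 in epiblast and between 11.60 and 12.44 in every later group, with 2.78 already at the step to E/MS precursors. Nid2, which bridges laminin and collagen IV, averaged 8.13 ± 0.74 in epiblast, 8.91 ± 0.75 in LS/0B precursors and 9.90 ± 0.82, 10.69 ± 0.29 and 10.73 ± 0.40 in the PGC groups. Npnt, nephronectin, was detected in 0 of 8 epiblast cells, 0 of 17 LS/0B precursors, 6 of 8 E/MB and 8 of 8 E8.25 PGCs, at least 8.39-fold above epiblast, and in 0 of 10 mesoderm and 1 of 12 E/MB knockout cells. It was also detected in 2 of 4 E/MB Blimp1+ Hoxb1+ cells (6.89 ± 0.92, against 8.45 ± 1.73 in E/MB PGCs). Frem2 (2.29) and the laminin receptor Dag1 (1.12) were also higher in E8.25 PGCs than in epiblast, and agrin (Agrn) was 1.28 lower. Between E/MB knockout cells and PGCs, 0 of 20 were higher (against 4%) and only Npnt was lower (against 3.61%), with a difference of -2.20.

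Adaptors that couple integrins to actin included 3 higher and 4 lower of 22 measured in E8.25 PGCs against epiblast, beside 4.9% and 5.12% of all genes. Src (-1.58), zyxin (Zyx, -1.76), Bcar1 (-1.05) and Parvb (-1.31) were lower, and Cd9 (1.48), Cd47 (1.19) and Tns3 (1.11) higher. Of these, Parvb was detected in 4 of 8 epiblast cells and 0 of 8 E8.25 PGCs. It was at least 1.04-fold lower there, so the size of its difference depends on the floor. Parvb, a parvin that binds integrin-linked kinase, was detected in 1 of 8 E/MB PGCs (6.29 ± 0.46), 12 of 12 E/MB knockout cells (8.61 ± 0.66) and 10 of 10 mesoderm cells (8.70 ± 0.68). Neither group overlapped with PGCs, and both differ from them in array set. Within the wild-type lineage, Parvb was 1.91 lower in E/MB PGCs than in LS/0B precursors (8.20 ± 1.58, 12 of 17 cells), with overlapping ranges. Vcl, vinculin, was 1.47 lower in E/MB PGCs than in LS/0B precursors, a step at which 2 of 22 adaptors were higher (against 2.96% of all genes) and 2 lower (against 2.66%).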

How the data were processed

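Single cells were picked from dissociated embryo fragments, their cDNA was amplified by PCR and each was hybridised to an Affymetrix array, per the labels' protocols. The authors deposited linear array intensity, for which the submitters' processing notes name MAS5, with no version or target scale in the sources used here. Of these values 15.3% stood at the lowest value, 1, and trimmed means per array were 131 to 207. The number of arrays limits the precision.

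From the deposited intensity, log2 signal was computed above a floor of 70.2 (6.13 in log2), the median over cells of the 90th percentile of 126 probe sets of olfactory, vomeronasal, taste receptor and hair keratin-associated genes. Detection limits were their 95th percentile in each cell (82.8 to 166). A gene was read from the probe set with the highest mean over all cells. Groups were compared by the difference of their means of this log2 signal, beside SDs over cells, at a threshold of 1 unit. Where 0 cells of the lower group were detected, an "at least" fold was given, taking for each of its cells the detection limit or the signal, whichever was higher. Because each group is 1 sample, no test was made. The code was tested on simulated data and run in Python 3.11.15, numpy 2.4.6, pandas 2.3.3 and scipy 1.17.1, with figures from matplotlib 3.10.9.

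The members, lists and comparisons were chosen with earlier results of these data known. Members found in 50% or more of a group's cells, members past 1 unit and detected in 75% of the cells of the higher group, and the chains counted together were named by rule, as were up to 5 companion genes in each direction. Other members and companion genes, such as Parvb within the wild-type lineage, are named to complete a count and were chosen after their values were seen. Promoter sequences were matched by symbol for 56 of 77 members. Alternatives were the mean of all probe sets, no floor, a stricter floor, a filter on detection, scaling to the lys controls or the 75th percentile, LS/0B cells with Xist left out, the 99th percentile as detection limit and each cell left out in turn.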

Additional observations from a re-analysis of the deposited data

Results flagged for a closer look

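Single cells that stood apart from the rest of their group were looked for in 69 groups of 4 to 10 cells, taking the members named by a difference in groups where at least 50% of cells had them detected. Such a cell, whose gap to its nearest neighbour exceeded the 95% limit for the group's range, was found in 5 groups, and chance alone marks about 1 in 20 groups. Col18a1 was at 6.16 in E/MB PGC 5, while the other 7 cells read 9.49 to 11.79. Lamb1 was at 6.23 in epiblast cell 1, while the other 7 read 9.38 to 10.52. Lama3 was at the floor, 6.13, in EHF PGC 4, with the others at 9.65 to 10.43. Lama5 was at 9.35 in E/MS precursor 6, above the others at 7.49 to 8.26. Lamc1 was at 7.02 in the fourth E/MB Blimp1+ Hoxb1+ cell, with the others at 8.84 to 9.12.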

How the results depend on the processing

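No paired analysis was possible because the labels pair no cells between groups and no test was made. The 31 named differences, over 12 genes, kept their direction under every alternative run. Leaving out 1 cell gave 562 values, of which 0 were reversed and 0 moved by more than the SD over cells. The named differences moved by more than the SD in 10 cases with all probe sets averaged, 9 without a floor, 3 with lys scaling, 1 with the stricter floor and 0 with the 75th percentile. Leaving out LS/0B cells with Xist bore on only 5 of them, of which 0 moved. Comparisons with epiblast could not be checked in this way, because 8 of 8 epiblast cells had Xist.

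Counts of members were less stable, as they are small. Averaging the probe sets gave 0 higher and 1 lower for E/MS precursors against epiblast, 0 higher for LS/0B against E/MS precursors, 1 lower for E/MB PGCs against LS/0B precursors, 0 higher and 2 lower for E8.25 PGCs against epiblast, 1 lower against mesoderm, 1 higher against Blimp1+ Hoxb1+ cells, 0 lower for LS/0B knockout cells, 2 higher and 2 lower for E/MB knockout cells against PGCs and 1 higher against mesoderm. Without a floor the counts higher and lower, in the order of the report, were 11 and 8, 8 and 5, 4 and 14, 6 and 3, 8 and 10, 12 and 12, 8 and 14, 4 and 4, 12 and 5, and 17 and 7. The stricter floor gave 0 higher at the first step, 1 higher at the second, 0 lower between E/MB and E8.25 PGCs, 1 lower against mesoderm and 2 higher for E/MB knockout cells against both PGCs and mesoderm. Requiring detection in 50% of cells gave 1 higher at the first step in place of 2, and 3 for E/MB knockout cells against PGCs in place of 4. Scaling to lys gave 4 higher and 2 lower at the first step, 1 and 1 at the second, 0 higher at the third, 0 lower between E/MB and E8.25 PGCs, 6 lower against mesoderm and 9 higher for E/MB knockout cells against PGCs. The 75th percentile gave 2 higher and 1 lower for E/MB knockout cells against mesoderm. Without the cells with Xist, 1 member was lower at the second step, 2 were higher and 1 lower at the third, and 2 were lower in LS/0B knockout cells. The cause was not tested. Leaving out 1 cell (E/MS cell 1, 3 or 4 or epiblast cell 2; the cells named with Col18a1; E/MB PGC 3 downward and PGC 1, 2, 5 or 6 or E8.25 PGC 2 or 7 upward; E/MB PGC 5; knockout cell 8 or mesoderm cell 1, 2, 8 or 9) moved the first step between 0 and 2 higher and 2 and 5 lower, the third between 0 and 1 higher, E/MB to E8.25 PGCs between 0 and 2 lower, and E/MB knockout cells between 1 and 2 lower than PGCs and 0 and 1 lower than mesoderm. At the 99th percentile as detection limit, Col4a1 and Col4a2 were found together in 5 cells in place of 19.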

Other observations

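Enzymes that fold and crosslink collagen and proteases of the matrix were measured in the same cells. In E8.25 PGCs against epiblast, 0 of 22 enzymes were higher and 2 lower, and 0 of 16 proteases and inhibitors were higher and 2 lower, against 4.9% and 5.12% of all genes. Pxdn, a peroxidase that crosslinks collagen IV, averaged 9.52 ± 0.79 in E/MB PGCs, with 8 of 8 cells detected, and 7.10 ± 1.66 in E8.25 PGCs, with 2 of 8. Mmp2, a gelatinase, averaged 7.79 ± 1.50 in E/MS and 9.69 ± 1.20 in LS/0B precursors, against 10.35 in E/MB and 7.91 ± 0.91 in E8.25 PGCs. Mmp14, a membrane protease that activates Mmp2, was 1.40 lower in E/MB PGCs than in LS/0B precursors. Plod3, a collagen lysyl hydroxylase, differed by -1.60 between E/MS precursors and epiblast, and P4ha2, a prolyl hydroxylase subunit, was detected in 1 of 8 E/MB PGCs and 9 of 10 mesoderm cells, a difference of -2.15 across array sets.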
